A study of Mus musculus with 19 samples.

Results

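Epithelial-mesenchymal transition (EMT) is described here through 10 genes: the cadherins Cdh1 and Cdh2, the intermediate filament gene Vim, the transcription factors Snai1, Snai2, Zeb1, Zeb2 and Twist1, and the epithelial regulators Esrp1 and Grhl2. They were chosen by gene symbol from the 46983 genes of the deposited count table, and all 10 are among the 16763 genes that passed the filter on low counts. The samples were 19 tumours grown from 4T1, a mouse mammary carcinoma line, implanted in syngeneic BALB/cAnN mice at 1000000 cells. Treatment with anti-CTLA-4, an antibody against an inhibitory receptor of T cells, or with an IgG control began 3 days after implantation and was given 3 times, 3 days apart. The 4 groups were LDHA-KD tumours given anti-CTLA-4 (line 4T1-KD, n = 5), LDHA-KD tumours given IgG (4T1-KD, n = 5), control tumours given anti-CTLA-4 (line 4T1-Sc, n = 5) and control tumours given IgG (4T1-Sc, n = 4, replicates 1, 3, 4 and 5). LDHA-KD marks a knockdown of lactate dehydrogenase A, the enzyme that turns pyruvate into lactate at the end of glycolysis, and the title of the series names the stability of regulatory T cells in tumours with low glycolysis. The labels give no ages, do not say that each sample is a separate animal, so that p-values measure only the spread between these samples, and do not say whether 4T1-KD is 1 clone. The knockdown and any other difference between the lines therefore cannot be told apart.

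EMT is the programme by which epithelial cells loosen their junctions and take on mesenchymal features. SNAIL, ZEB and TWIST family proteins bind E-box DNA letters and are known to repress Cdh1, the gene of E-cadherin, while Vim and Cdh2, the gene of N-cadherin, are classical mesenchymal markers. GRHL2 and the splicing factor ESRP1 maintain the epithelial state, and GRHL2 and ZEB1 repress each other in human mammary epithelial cells. In whole tumours these genes are also read from fibroblasts, vessels and leukocytes, and fewer cells of a type and less RNA per cell cannot be told apart.

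Levels are given in CPM, the count of a gene over the scaled total of its library, times 1000000. Values with ± are mean ± SD over the 5 tumours of a group, or over 4 for control tumours given IgG. Gene counts per tumour ran from 31783272 to 43266699, and a floor of 3 counts, which covers counting error only, stood at 0.0693 to 0.0944 CPM with unscaled totals. Ldha itself ranged from 485 to 584 CPM in LDHA-KD tumours given anti-CTLA-4 and from 452 to 519 CPM in LDHA-KD tumours given IgG, against 1524 to 2244 CPM in control tumours given anti-CTLA-4 and 1283 to 1926 CPM in control tumours given IgG, which matches the labels. Principal components 1 and 2 took up 41.8% and 17.0% of the variance, and on the second the anti-CTLA-4 tumours numbered 3 and 5 of both lines stood apart. None of the carcinoma markers was at 0 in any tumour, but their summed level was lower in the knockdown line. It ranged from 1816 to 3053 CPM in LDHA-KD tumours given anti-CTLA-4 and from 2897 to 3065 CPM with IgG, against 3792 to 4671 CPM in control tumours given anti-CTLA-4 and 3933 to 5046 CPM with IgG.

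Different genes were compared per kilobase of exon, with the length taken over all annotated exons of a gene together. A single transcript can be shorter than that, so the order of genes with close values depends on this length. On this scale Vim was the most abundant of the 10 genes in every group. Its means were 1044 and 963 CPM per kb in LDHA-KD tumours given anti-CTLA-4 and IgG. In control tumours with the same treatments they were 1020 and 848 CPM per kb. Cdh1 followed at 95.8 and 85.6 CPM per kb in LDHA-KD tumours given anti-CTLA-4 and IgG, against 98.1 and 98.3 CPM per kb in control tumours. E-cadherin and vimentin transcripts were thus both abundant in the same tumours. Among the transcription factors, Twist1 and Snai1 had the highest levels on this scale, with group means of 11.2 to 22.1 and of 11.02 to 15.3 CPM per kb. Their exon lengths were 1628 and 1621 bases, against 19942 for Zeb2, whose mean CPM was above theirs in every group. Their order against Zeb2 therefore rests on the length used. The mean of Zeb2 lay between 5.61 and 8.24 CPM per kb, that of Zeb1 between 1.60 and 2.03, and that of Snai2 between 0.824 and 1.68. Grhl2 had 2.28 to 4.56 CPM per kb, and its partner in the epithelial programme, Esrp1, only 0.201 to 0.317. Cdh2 was the lowest of the 10, at 0.0914 to 0.197 CPM per kb and 17 to 119 counts per tumour, so its values carry the most counting error.

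**Figure D1:**
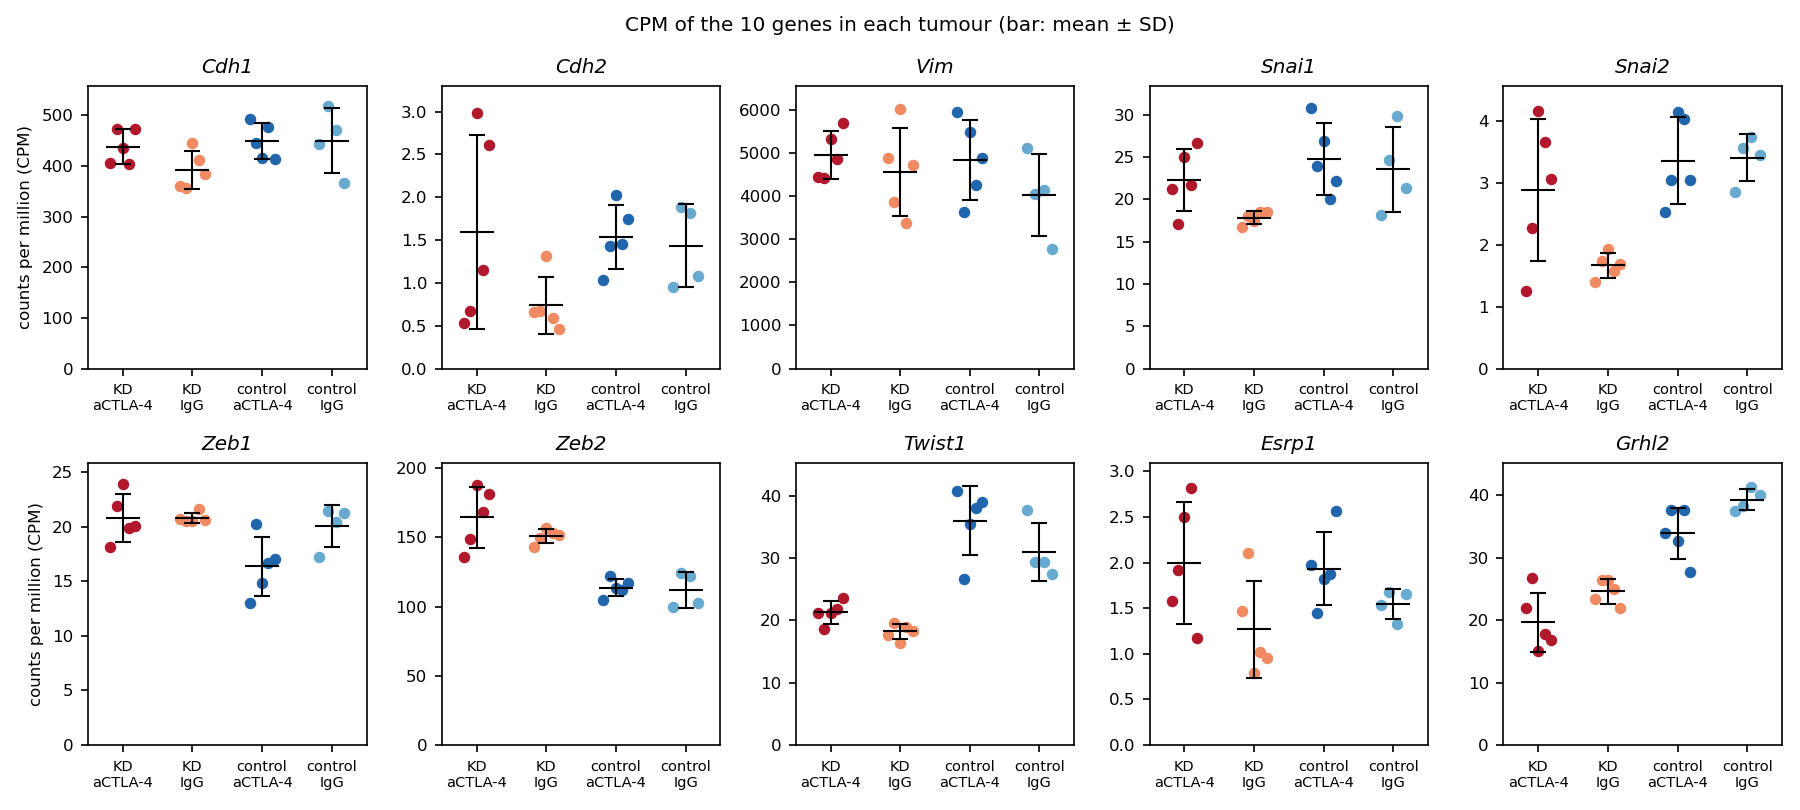
CPM of each gene (vertical axis, linear and starting at 0) in every tumour, with 1 point per tumour and bars for the mean ± SD of the groups. Twist1 and Grhl2 lie lower and Zeb2 higher in both LDHA-KD groups than in the control groups with the same treatment, while Cdh1 and Vim overlap.

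LDHA-KD tumours were set against control tumours under each treatment in 1 model over all 19 libraries, and adjusted p-values are those of edgeR's quasi-likelihood test with Benjamini-Hochberg adjustment over all 16763 genes, called under 0.05. Under IgG, 5 of the 10 genes were called, with Zeb2 higher and Twist1, Grhl2, Snai2 and Snai1 lower in the knockdown line. Of all genes tested, 16.8% were called higher and 17.5% lower in that comparison. Against this, 1 higher call among 10 is near or below the background and 4 lower calls lie above it. The lower call of Snai1 was lost when any 1 of 6 libraries was left out. The 10 genes were chosen with earlier results of these data known, so these counts are no test of an excess. Under anti-CTLA-4, 4 genes were called, with Zeb2 and Zeb1 higher and Twist1 and Grhl2 lower, where 20.2% of all genes were called higher and 19.8% lower. Both of those counts, at 2 of 10, are near the background. CPM values of the groups did not overlap for 4 of the 10 genes under IgG (Snai2, Zeb2, Twist1 and Grhl2), against 30.4% of all genes, and for 3 under anti-CTLA-4 (Zeb2, Twist1 and Grhl2), against 23.2%.

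Twist1, a basic helix-loop-helix factor of mesoderm and of EMT, had the smallest p of the 10 genes in both comparisons. Under IgG its CPM was 17.7, 19.7, 16.4, 19.01 and 18.3 in the LDHA-KD tumours, against 37.8, 29.4, 29.5 and 27.4 in the control tumours. With anti-CTLA-4 it was 21.2, 18.6, 21.1, 21.9 and 23.7 CPM in the LDHA-KD tumours, against 40.8, 26.7, 35.4, 38.1 and 38.9 CPM in the control tumours. Every LDHA-KD tumour lay below every control tumour with the same treatment. Under IgG the log2 fold change was -0.77 (SE 0.113, adjusted p = 4.06e-05), and with anti-CTLA-4 it was -0.76 (SE 0.107, adjusted p = 2.28e-05). The means were 21.3 ± 1.83 CPM (SD, n = 5) in LDHA-KD tumours given anti-CTLA-4 and 18.2 ± 1.24 CPM (n = 5) in LDHA-KD tumours given IgG, against 36.0 ± 5.55 CPM (n = 5) in control tumours given anti-CTLA-4 and 31.0 ± 4.60 CPM (n = 4) in control tumours given IgG. The treatments overlapped within each line, and only the step between the lines cleared the spread of its neighbours. The gene lies at chr12:33957671-33959829 on the plus strand of GRCm38.

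Zeb2, a zinc-finger E-box repressor that macrophages and other leukocytes also express, was higher in the knockdown line. Under IgG it had 143, 150, 157, 153 and 151 CPM in the LDHA-KD tumours, against 99.3, 124, 122 and 102 CPM in the control tumours. With anti-CTLA-4 it had 136, 149, 188, 168 and 181 CPM in the LDHA-KD tumours, against 105, 122, 113, 112 and 117 CPM in the control tumours. Again the lines did not overlap under either treatment. Under IgG the log2 fold change was 0.43 (SE 0.0906, adjusted p = 0.00117), and with anti-CTLA-4 it was 0.53 (SE 0.0850, adjusted p = 7.72e-05). Means of 164 ± 21.8 and 151 ± 4.98 CPM (n = 5 each) in LDHA-KD tumours given anti-CTLA-4 and IgG, against 114 ± 6.36 (n = 5) and 112 ± 12.9 CPM (n = 4) in control tumours, put the treatments within each other's spread. Leukocyte markers were also higher in the knockdown line. All 5 were higher in the LDHA-KD tumours under anti-CTLA-4 and 4 of 5 under IgG, and their summed CPM ran from 891 to 1222 in LDHA-KD and 557 to 655 in control tumours given anti-CTLA-4, and from 879 to 979 in LDHA-KD and 466 to 632 in control tumours given IgG. Of the macrophage markers, 6 and 5 of 6 were higher under the same treatments, with none at 0 in any tumour. All genes were called higher at 20.2% and 16.8%. After each group's mean was subtracted from log2 CPM, Zeb2 had Pearson r = 0.68 with leukocyte markers (permutation p = 0.0132, adjusted p = 0.110). With macrophage markers it had r = 0.36 (permutation p = 0.238, adjusted p = 0.542), and neither passed. The part of leukocytes and macrophages in the level of Zeb2 was not tested. Zeb2 (chr2:44983632-45117395, minus strand) overlaps the antisense gene Zeb2os, and the strand setting of the counting is not given in the sources used here, so reads of the pair may be mixed.

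The SNAIL family members Snai2 and Snai1 were called lower in the knockdown line under IgG, and neither was called under anti-CTLA-4. Snai2, which encodes SLUG and lies at chr16:14705852-14709385 on the plus strand, had 1.39, 1.74, 1.93, 1.57 and 1.69 CPM in the LDHA-KD tumours given IgG, against 2.86, 3.57, 3.73 and 3.45 CPM in the control tumours given IgG. All 5 knockdown tumours lay under all 4 controls, with a log2 difference of -1.03 (SE 0.248, adjusted p = 0.00330). With anti-CTLA-4 it had 1.26, 2.27, 4.16, 3.65 and 3.06 CPM in the LDHA-KD tumours, against 2.53, 3.04, 4.15, 4.02 and 3.05 CPM in the control tumours. Those groups overlapped almost completely, with replicate 1 of the LDHA-KD tumours lowest and replicate 3 highest. The log2 fold change there was -0.22 (SE 0.230, adjusted p = 0.461). Whether the line difference itself changed with treatment is asked by the interaction, which was 0.81 for Snai2 (SE 0.338). Its unadjusted p was under 0.05, but it did not pass the edgeR adjustment (adjusted p = 0.9998).

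Snai1 encodes SNAIL (chr2:167538195-167542814, plus strand). It had 16.7, 18.1, 17.4, 18.6 and 18.5 CPM in the LDHA-KD tumours given IgG, against 18.2, 24.7, 29.9 and 21.4 CPM in the control tumours given IgG. The knockdown values sat close together and overlapped only the lowest control, replicate 1. The log2 fold change of -0.40 (SE 0.142, adjusted p = 0.0361) was called, but the call was lost when any 1 of 6 libraries was left out: control IgG replicates 3 or 4, or LDHA-KD IgG replicates 1, 2, 3 or 5. Without control IgG replicate 4 the value was -0.26 (adjusted p = 0.165), and the largest change, -0.51, came without control IgG replicate 1. With anti-CTLA-4, Snai1 had 21.2, 17.1, 25.0, 21.7 and 26.7 CPM in LDHA-KD tumours, against 30.8, 24.0, 27.0, 20.01 and 22.2 CPM in control tumours. These overlapped, at a log2 difference of -0.15 (SE 0.134, adjusted p = 0.388).

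Zeb1, the close relative of Zeb2, was called under anti-CTLA-4 and not under IgG. With anti-CTLA-4 it had 18.1, 21.9, 23.9, 19.9 and 20.1 CPM in the LDHA-KD tumours, against 13.0, 20.3, 14.9, 16.7 and 17.0 CPM in the control tumours. Only control replicate 2 reached into the range of the knockdown tumours, and the log2 fold change was 0.34 (SE 0.101, adjusted p = 0.0112). Without the 4 libraries that stood apart on the second component it was 0.26 and no longer called (adjusted p = 0.165). With IgG the levels were 20.7, 20.5, 20.5, 21.7 and 20.6 CPM in the LDHA-KD tumours, against 17.3, 21.4, 20.5 and 21.3 CPM in the control tumours. Here the groups overlapped, and the log2 fold change was 0.05 (SE 0.107, 95% interval -0.17 to 0.27, adjusted p = 0.754). The interaction for Zeb1 was 0.29 (SE 0.147, edgeR adjusted p = 0.9998), so the lines were not shown to respond differently. Zeb1 spans chr18:5591860-5775467 on the plus strand and overlaps annotated genes on the opposite strand.

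Grhl2, which encodes a grainyhead transcription factor that activates epithelial junction genes, was lower in the knockdown line. Under IgG it had 23.3, 26.4, 26.4, 24.9 and 21.9 CPM in the LDHA-KD tumours, against 37.5, 38.4, 41.4 and 40.0 CPM in the control tumours. With anti-CTLA-4 it had 21.9, 26.8, 15.1, 17.7 and 16.8 CPM in the LDHA-KD tumours, against 33.9, 37.6, 32.7, 37.6 and 27.7 CPM in the control tumours. Neither pair of groups overlapped, although the highest LDHA-KD tumour with anti-CTLA-4, replicate 2, came close to the lowest control, replicate 5. Under IgG the log2 fold change was -0.68 (SE 0.130, adjusted p = 0.000501), and with anti-CTLA-4 it was -0.79 (SE 0.124, adjusted p = 6.67e-05). The means, in rising order, were 19.7 ± 4.71 CPM (n = 5) in LDHA-KD tumours given anti-CTLA-4, 24.6 ± 1.96 CPM (n = 5) in LDHA-KD tumours given IgG, 33.9 ± 4.10 CPM (n = 5) in control tumours given anti-CTLA-4 and 39.3 ± 1.71 CPM (n = 4) in control tumours given IgG, and the treatments overlapped within each line. Of the carcinoma markers, 6 of 11 were lower and 1 higher in the knockdown line under IgG, and 7 lower and 1 higher under anti-CTLA-4. All genes were called lower at 17.5% and 19.8% in these comparisons. Epcam, a surface protein of epithelial cells, averaged 95.2 ± 31.4 and 112 ± 15.9 CPM in LDHA-KD tumours given anti-CTLA-4 and IgG, against 477 ± 64.8 and 512 ± 87.3 CPM in control tumours. Not all of the 11 fell as far, and their median log2 fold change was -0.56 under IgG and -0.44 under anti-CTLA-4. Under IgG, Krt8 averaged 1122 ± 53.4 CPM in LDHA-KD and 1235 ± 112 CPM in control tumours. Cldn7 was higher there, at 24.2 ± 2.82 CPM in LDHA-KD and 9.31 ± 0.928 CPM in control tumours. After each group's mean was subtracted from log2 CPM, Grhl2 and the carcinoma markers had Pearson r = 0.21 (permutation p = 0.495, adjusted p = 0.759). The part of carcinoma cells in the level of Grhl2 was not tested. Grhl2 lies at chr15:37233036-37363569 on the plus strand and overlaps antisense genes.

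Esrp1, the splicing regulator at chr4:11331933-11386783 on the minus strand, overlaps Gm26663 on the opposite strand, so reads of the pair may be mixed. Esrp1 was low and variable. It had 1.58, 1.92, 2.51, 2.82 and 1.17 CPM in LDHA-KD tumours given anti-CTLA-4, against 1.97, 1.45, 1.82, 1.88 and 2.56 CPM in control tumours given anti-CTLA-4. With IgG it had 1.47, 2.10, 0.795, 1.02 and 0.953 CPM in LDHA-KD tumours, against 1.53, 1.68, 1.33 and 1.65 CPM in control tumours. Both pairs overlapped. With anti-CTLA-4 the fitted log2 fold change was 0.05 (SE 0.252, 95% interval -0.48 to 0.58, adjusted p = 0.891), and with IgG it was -0.28 (SE 0.276, 95% interval -0.86 to 0.30, adjusted p = 0.464). With 26 to 115 counts per tumour, the intervals are wider than those of the better covered genes. Its paralog Esrp2 was better measured and was called lower in the knockdown line, with 8.93 ± 0.956 CPM in LDHA-KD and 12.2 ± 1.21 CPM in control tumours under anti-CTLA-4 (log2 fold change -0.45, SE 0.0996, adjusted p = 0.00155), and 7.64 ± 0.180 CPM in LDHA-KD and 13.6 ± 1.91 CPM in control tumours under IgG (-0.83, SE 0.105, adjusted p = 7.49e-06).

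Neither cadherin was called. Cdh1 (chr8:106603351-106670246, plus strand) had 405, 473, 435, 404 and 473 CPM in the LDHA-KD tumours given anti-CTLA-4, against 493, 445, 416, 476 and 413 CPM in the control tumours given anti-CTLA-4. With IgG it had 361, 356, 445, 412 and 384 CPM in the LDHA-KD tumours, against 443, 518, 472 and 366 CPM in the control tumours. With anti-CTLA-4 the fitted log2 fold change was -0.03 (SE 0.0913, 95% interval -0.23 to 0.16, adjusted p = 0.789), and with IgG it was -0.20 (SE 0.0967, 95% interval -0.40 to 0.00, adjusted p = 0.117). Control IgG replicate 5 was the lowest control tumour, and without it the IgG difference was -0.29 and passed (adjusted p = 0.0233). E-cadherin transcripts thus overlapped between the lines under both treatments.

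Cdh2 (chr18:16588877-16809246, minus strand) overlaps the antisense gene Gm15485, so reads of the pair may be mixed. Cdh2 had 0.535, 0.675, 2.98, 1.15 and 2.61 CPM in the LDHA-KD tumours given anti-CTLA-4, against 1.03, 1.43, 2.02, 1.45 and 1.75 CPM in the control tumours given anti-CTLA-4. In the knockdown group replicates 3 and 5 were above all 5 controls and replicates 1 and 2 below all of them. Under IgG it had 0.658, 0.667, 1.31, 0.586 and 0.463 CPM in the LDHA-KD tumours, against 0.953, 1.89, 1.81 and 1.08 CPM in the control tumours. Only LDHA-KD replicate 3 reached into the control range. With anti-CTLA-4 the fitted log2 fold change was 0.05 (SE 0.396, 95% interval -0.78 to 0.88, adjusted p = 0.936), and with IgG it was -0.96 (SE 0.440, 95% interval -1.88 to -0.04, adjusted p = 0.0989). Without LDHA-KD IgG replicate 3 the IgG value was -1.26 and passed (adjusted p = 0.0418), and it passed also without the 4 libraries apart on the second component (adjusted p = 0.0249), where the anti-CTLA-4 value was -0.73 and not called.

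Vim (chr2:13573927-13582826, plus strand) had 4450, 4420, 5327, 4864 and 5686 CPM in the LDHA-KD tumours given anti-CTLA-4, against 5951, 3619, 5489, 4251 and 4879 CPM in the control tumours given anti-CTLA-4. With IgG it had 4881, 3857, 6017, 3369 and 4709 CPM in the LDHA-KD tumours, against 5107, 4057, 4149 and 2773 CPM in the control tumours. Vimentin is made by fibroblasts, vessels and leukocytes as well as by mesenchymal carcinoma cells, and its levels overlapped throughout. With anti-CTLA-4 the fitted log2 fold change was 0.03 (SE 0.169, 95% interval -0.32 to 0.39, adjusted p = 0.893), and with IgG it was 0.18 (SE 0.179, 95% interval -0.19 to 0.56, adjusted p = 0.461).

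**Figure D2:**
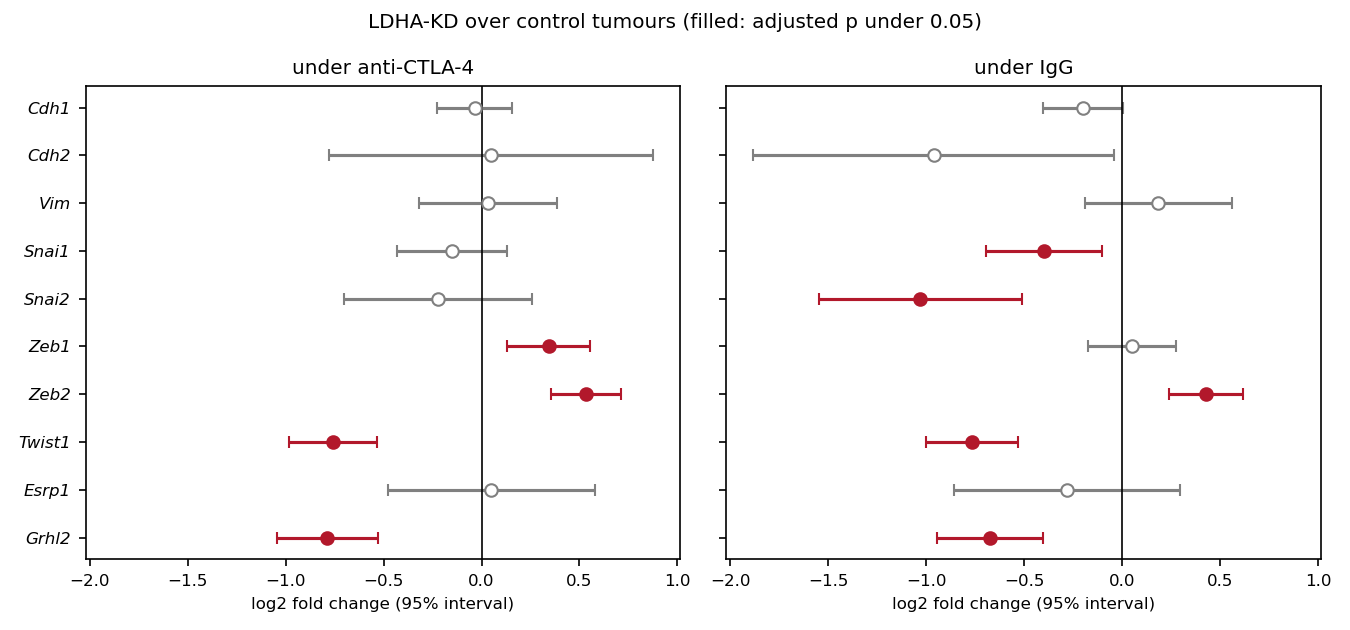
Log2 fold change of LDHA-KD over control tumours (horizontal axis) for the 10 genes, with 95% intervals, under anti-CTLA-4 on the left and under IgG on the right. Filled points are genes with an adjusted p under 0.05, which are Zeb1, Zeb2, Twist1 and Grhl2 under anti-CTLA-4 and Snai1, Snai2, Zeb2, Twist1 and Grhl2 under IgG.

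Promoter sequence was at hand for 4 of the 10 genes in the RefSeq table for GRCm38.p6 (Vim, Snai1, Twist1 and Zeb2). The 250 bases before the start are shown for the 3 of these genes that were called, since these factors bind E-boxes and their own promoters can be read for such letters. Capitals mark CACCTG, the E-box form that SNAIL and ZEB factors are known to bind. Each line gives the gene, the strand and the position, 5′ to 3′.
Twist1, plus strand, chr12:33957421-33957670: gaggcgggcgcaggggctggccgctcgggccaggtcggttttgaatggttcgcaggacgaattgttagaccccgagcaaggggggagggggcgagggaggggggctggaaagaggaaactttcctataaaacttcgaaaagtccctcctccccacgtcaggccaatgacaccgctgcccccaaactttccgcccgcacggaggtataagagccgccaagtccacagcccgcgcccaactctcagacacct
Snai1, plus strand, chr2:167537945-167538194: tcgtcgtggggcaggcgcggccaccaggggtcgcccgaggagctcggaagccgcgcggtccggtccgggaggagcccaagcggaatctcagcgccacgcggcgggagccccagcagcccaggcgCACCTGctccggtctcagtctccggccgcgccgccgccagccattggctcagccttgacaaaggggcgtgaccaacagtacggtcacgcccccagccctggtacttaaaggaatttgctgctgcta
Zeb2, minus strand, chr2:45113280-45113529: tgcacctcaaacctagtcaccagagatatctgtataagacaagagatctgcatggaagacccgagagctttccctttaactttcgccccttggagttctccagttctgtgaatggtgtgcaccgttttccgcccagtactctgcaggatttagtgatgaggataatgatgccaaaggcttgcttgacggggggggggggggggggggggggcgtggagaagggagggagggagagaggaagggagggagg
Of the 4 starts listed for Zeb2, the window shown is the first whose bases after the start fall in an annotated transcript. The general E-box CANNTG, which includes CACCTG and CAGGTG and reads the same way on both strands, was searched. It was found once in the Snai1 window, as CACCTG with its first base 126 bases before the start, and its letters are not in the Twist1 and Zeb2 windows shown. Among 32851 promoter windows of 250 bases, 66.22% held CANNTG and 17.22% held CACCTG or CAGGTG. A match describes letters and not a bound site.

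Anti-CTLA-4 tumours were then set against IgG tumours within each line. None of the 10 genes was called by edgeR in either line, and none in the interaction. The background in each of these 3 comparisons was 0% of all genes called. At an unadjusted p under 0.05, 1987 genes in LDHA-KD tumours, 1346 genes in control tumours and 415 in the interaction were found. DESeq2 called 49, 13 and 0 genes and limma voom none, with none of the 10 among them. No gene of the 10 had groups that did not overlap, where 1.38% of all genes did so in LDHA-KD and 1.27% in control tumours.

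In LDHA-KD tumours, 5 of the 10 genes had an unadjusted p under 0.05 without passing the adjustment, against 11.9% of all genes. With the values listed above, Snai2 averaged 2.88 ± 1.15 CPM with anti-CTLA-4 and 1.67 ± 0.198 CPM with IgG (SD, n = 5 each), a log2 difference of 0.79 (SE 0.237, edgeR adjusted p = 0.304). Replicate 1 with anti-CTLA-4 was below all 5 IgG tumours and the other 4 were above all of them. Cdh2 averaged 1.59 ± 1.13 CPM with anti-CTLA-4 and 0.738 ± 0.333 CPM with IgG (log2 fold change 1.11, SE 0.417, edgeR adjusted p = 0.329), where the anti-CTLA-4 replicates 3 and 5 carried the difference and replicates 1, 2 and 4 lay within the range of the IgG tumours. Esrp1 had a log2 difference of 0.65 (SE 0.258), Snai1 of 0.32 (SE 0.135) and Grhl2 of -0.32 (SE 0.124), with edgeR adjusted p-values of 0.346, 0.364 and 0.335. Replicates 3 and 5 given anti-CTLA-4 are the LDHA-KD tumours that stood apart on the second component. Without these and the 2 control tumours apart there, the log2 difference was 0.10 for Cdh2, 0.52 for Snai2, 0.17 for Snai1 and -0.15 for Grhl2, while that of Esrp1 was 0.72. The remaining genes lay between -0.00 for Zeb1 and 0.22 for Twist1.

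In control tumours only Zeb1 had an unadjusted p under 0.05, and 1 of 10 is near the 8.03% of all genes there. It averaged 16.4 ± 2.70 CPM with anti-CTLA-4 (n = 5) and 20.1 ± 1.94 CPM with IgG (n = 4), a log2 difference of -0.29 (SE 0.107, edgeR adjusted p = 0.601). Of the 20 pairs of an anti-CTLA-4 and an IgG tumour, 1 had the higher Zeb1 in the anti-CTLA-4 tumour. The others ranged from -0.21 for Grhl2 to 0.32 for Esrp1 on the log2 scale. For Cdh1 the interval of the treatment difference was -0.21 to 0.20 in control and -0.03 to 0.35 in LDHA-KD tumours, whereas for Cdh2 it was -0.79 to 0.99 in control tumours, a far wider range at its lower counts.

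**Figure D3:**
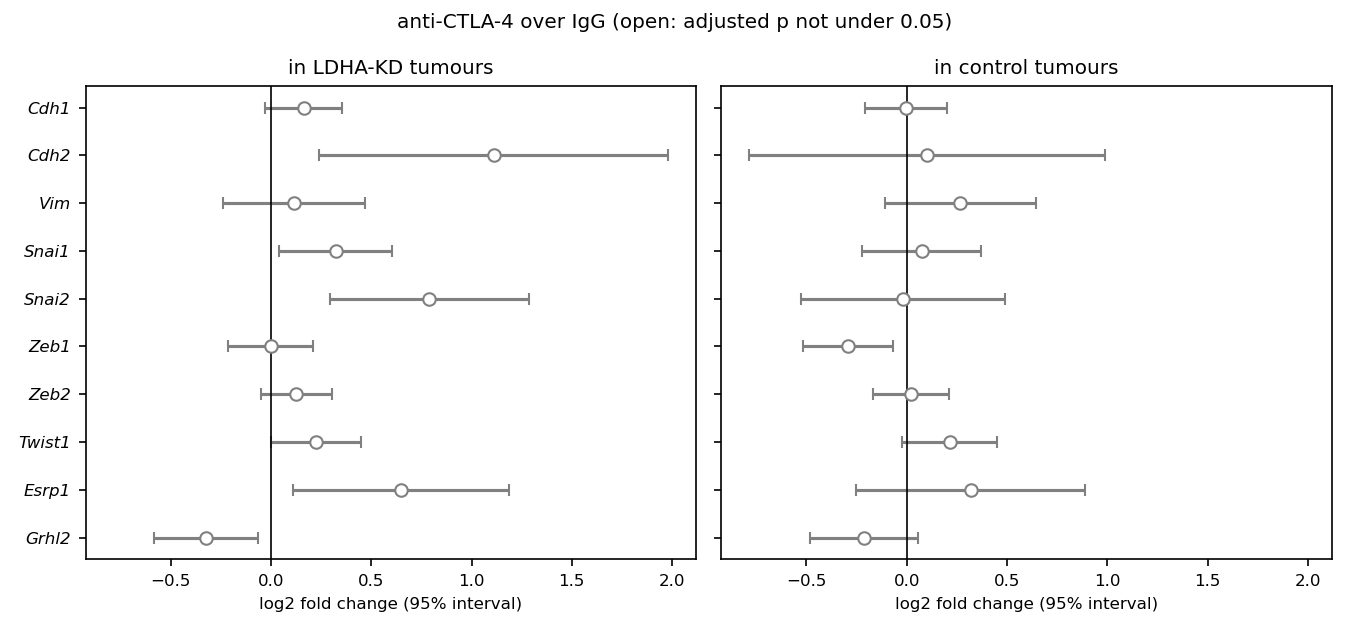
Log2 fold change of anti-CTLA-4 over IgG (horizontal axis) for the 10 genes, with 95% intervals, in LDHA-KD tumours on the left and in control tumours on the right. All points are open because no adjusted p was under 0.05, and Cdh2, Snai2 and Esrp1 have the largest values in LDHA-KD tumours.

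Other genes of the programme were read from 5 lists. Of 12 measured cadherins and catenins, 7 were lower and none higher in the knockdown line under each treatment, with a median log2 fold change of -0.25 under anti-CTLA-4 and -0.47 under IgG, against 0.01 and -0.00 over all genes. All genes were called lower at 19.8% and 17.5% in these comparisons. Jup, which encodes plakoglobin of junctions and desmosomes, averaged 49.8 ± 10.5 CPM in LDHA-KD and 163 ± 21.0 CPM in control tumours given anti-CTLA-4 (log2 fold change -1.71, SE 0.144) and 57.3 ± 10.4 CPM in LDHA-KD and 183 ± 19.7 CPM in control tumours given IgG (-1.68, SE 0.150). Cdh11, the cadherin of fibroblasts and osteoblasts, changed by -0.59 (SE 0.148) under anti-CTLA-4 and -1.03 (SE 0.156) under IgG, and Cdh5, the cadherin of endothelium, by -0.47 (SE 0.133) and -0.80 (SE 0.140). Fibroblast markers had 3 of 11 higher and none lower under anti-CTLA-4, where 20.2% of all genes were called higher and the list's median was 0.01. Under IgG 1 was higher and 5 were lower, with a median of -0.20. Their summed level ranged from 3411 to 8027 CPM in LDHA-KD and from 3090 to 5953 CPM in control tumours given anti-CTLA-4, and from 3533 to 4441 CPM in LDHA-KD and from 3685 to 5747 CPM in control tumours given IgG. Their part in the values of Cdh11, and in the lower calls of Snai2, Prrx1 and Tnc under IgG, was not tested. Of the endothelial markers, a list that holds Cdh5 itself, 5 of 8 were lower under anti-CTLA-4 and all 8 under IgG. The part of endothelial cells in the Cdh5 values was not tested. With library totals in place of TMM factors 3 cadherins and catenins were called lower under anti-CTLA-4, and 4 without the filter on low counts, and 3 endothelial markers with library totals.

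Among 14 other EMT-inducing transcription factors, 4 were higher and 4 lower under anti-CTLA-4, and 4 higher and 5 lower under IgG, with medians of -0.17 and -0.23. Of all genes, 20.2% were called higher and 19.8% lower under anti-CTLA-4, and 16.8% and 17.5% under IgG. The counts of 4 of 14 are not far above this background, and the 5 lower calls under IgG lie above it. This list too was chosen with earlier results known, so its counts are no test of an excess. Foxc2, a forkhead factor, was higher (0.43, SE 0.106) and Sox4, an HMG-box factor, lower (-0.64, SE 0.136) under anti-CTLA-4. Prrx1, a mesenchymal homeobox factor, was lower under IgG (-0.94, SE 0.157). Twist2, the paralog of Twist1, had a log2 difference of -0.82 (SE 0.189, edgeR adjusted p = 0.00245) under IgG and of -0.44 (SE 0.178, edgeR adjusted p = 0.0543) under anti-CTLA-4. Snai3, the low paralog of Snai1 and Snai2, had -1.68 (SE 0.378, edgeR adjusted p = 0.00167) under anti-CTLA-4 and -0.67 (SE 0.412, edgeR adjusted p = 0.222) under IgG, at means of at most 0.463 CPM.

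Of 12 measured epithelial-state regulators, 4 were lower under anti-CTLA-4 and 3 under IgG, and none was higher, with medians of 0.04 and 0.01. All genes were called lower at 19.8% and 17.5%, so 3 of 12 under IgG is near that share, and both medians are near the 0.01 and -0.00 of all genes. Elf3, an epithelial ETS factor, was lower under anti-CTLA-4 (-0.62, SE 0.156), beside Esrp2 above. The Grhl2 paralogs Grhl1 and Grhl3 were not called, at means of at most 0.900 CPM. The list gave 2 higher and 5 lower under anti-CTLA-4 without the 4 libraries apart on the second component, and 2 higher and 3 lower under IgG without control IgG replicate 3. Of 12 mesenchymal markers, 6 were lower, 1 higher and 5 not called under anti-CTLA-4, and 8 were lower, 1 higher and 3 not called under IgG, with medians of -0.50 and -0.79. Those 6 and 8 lower calls stand against 19.8% and 17.5% of all genes. Tagln, a smooth-muscle actin-binding protein, averaged 54.9 ± 9.69 CPM in LDHA-KD and 131 ± 17.997 CPM in control tumours given anti-CTLA-4 (log2 fold change -1.25, SE 0.123) and 49.2 ± 5.44 CPM in LDHA-KD and 148 ± 21.2 CPM in control tumours given IgG (-1.59, SE 0.129). Acta2, smooth-muscle actin, changed by -0.97 (SE 0.170) under anti-CTLA-4 and -1.38 (SE 0.179) under IgG, and Tnc, a matrix protein, by -1.53 (SE 0.169) under IgG, while Axl, a receptor tyrosine kinase, was the higher one with 0.40 (SE 0.0768) under anti-CTLA-4. Pericyte and smooth-muscle markers were lower in the same direction, 3 of 6 under each treatment, with summed levels of 145 to 227 CPM in LDHA-KD and 217 to 265 CPM in control tumours under anti-CTLA-4, and of 144 to 163 CPM in LDHA-KD and 242 to 286 CPM in control tumours under IgG. Their part in these values was not tested.

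TGF-beta is a classical inducer of SNAIL and ZEB genes. Of 10 measured genes of its signalling, the knockdown line had 2 higher and 1 lower under anti-CTLA-4. Under IgG it had 1 higher and 3 lower, and the medians were -0.10 and -0.13. The list also holds inhibitors such as Skil, so its counts do not give a direction of signalling. Under anti-CTLA-4 both counts are at or below the background of 20.2% higher and 19.8% lower. Under IgG the 1 higher call is below 16.8% of all genes, and the 3 lower calls compare with 17.5%. Tgfb2, a ligand, averaged 4.14 ± 0.741 CPM in LDHA-KD and 13.3 ± 1.95 CPM in control tumours given anti-CTLA-4 (log2 fold change -1.69, SE 0.132) and 3.64 ± 0.282 CPM in LDHA-KD and 13.6 ± 1.56 CPM in control tumours given IgG (-1.90, SE 0.139). The ligand Tgfb3 went the other way, by 0.51 (SE 0.122) under anti-CTLA-4 and 0.49 (SE 0.130) under IgG. The receptor Tgfbr2 was higher by 0.22 (SE 0.0841) under anti-CTLA-4, and Skil, an inhibitor of SMAD signalling, was lower under IgG (-0.26, SE 0.0868). The TGF-beta count became 2 higher and 3 lower under anti-CTLA-4 without LDHA-KD anti-CTLA-4 replicate 2, and 1 higher and 1 lower under IgG without control IgG replicate 1, without LDHA-KD IgG replicate 2 or with no filter on low counts. None of the 5 lists had a gene called for treatment in either line.

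Tumours of 1 group also differed among themselves. The coefficient of variation of Cdh2 was 71.1% in LDHA-KD tumours given anti-CTLA-4 and 45.1% with IgG, against 24.4% in control tumours given anti-CTLA-4 and 33.8% with IgG, while that of Zeb1 in LDHA-KD tumours given IgG was 2.33%. After each group's mean was subtracted from log2 CPM, Zeb2 and Cdh2 moved together over the 19 tumours (Pearson r = 0.85, permutation p = 0.00067, adjusted p = 0.0302 over 45 pairs of the 10 genes, Spearman rho = 0.80, permutation p = 0.00246, adjusted p = 0.0601). Without the 2 tumours farthest from the median, r was 0.76. This was the 1 pair with an adjusted p under 0.05 for Pearson's r, and its rank correlation did not pass.

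The same centred values were set against 10 marker lists, which makes 100 relations, of which 6 had an adjusted permutation p under 0.05 for Pearson's r and none for Spearman's rho. Zeb2 moved with pericyte and smooth-muscle markers (r = 0.84, p = 0.00166, adjusted p = 0.0413, rho = 0.85, p = 0.00142, adjusted p = 0.0813, r = 0.75 without the 2 farthest tumours) and with fibroblast markers (r = 0.82, permutation p = 0.00032, adjusted p = 0.032, rho = 0.75, p = 0.002, r = 0.75 without 2). Cdh2 did so with pericyte and smooth-muscle markers (r = 0.84, permutation p = 0.0007, adjusted p = 0.035, rho = 0.77, p = 0.00244, r = 0.73 without 2) and with fibroblast markers (r = 0.74, permutation p = 0.00248, adjusted p = 0.0413, rho = 0.61, p = 0.0189, r = 0.65 without 2). Zeb1 moved with fibroblast markers (r = 0.76, permutation p = 0.00247, adjusted p = 0.0413, rho = 0.59, p = 0.0286, r = 0.64 without 2). Grhl2 moved against neutrophil markers (r = -0.77, permutation p = 0.00155, adjusted p = 0.0413, rho = -0.67, p = 0.0125, r = -0.74 without 2). Snai2 against pericyte and smooth-muscle markers had r = 0.66 (permutation p = 0.0419, adjusted p = 0.175, rho = 0.56, p = 0.0552), and 0.39 once replicates 1 and 3 of the anti-CTLA-4-treated LDHA-KD tumours were left out, so that relation rests on those tumours. Against fibroblast markers Snai2 had r = 0.73 (permutation p = 0.00444, adjusted p = 0.0603, rho = 0.61, p = 0.0206, r = 0.59 without 2), which did not pass. LDHA-KD anti-CTLA-4 replicates 3 and 5, which stood apart on the second component, had the highest centred pericyte and smooth-muscle values, 0.451 and 0.299. Neither these relations nor that of Zeb2 with Cdh2 were computed without the 4 libraries apart there. None of these lists had a marker at 0 in any tumour, and pairs of genes in such a relation share library, depth and scaling.

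**Figure D4:**
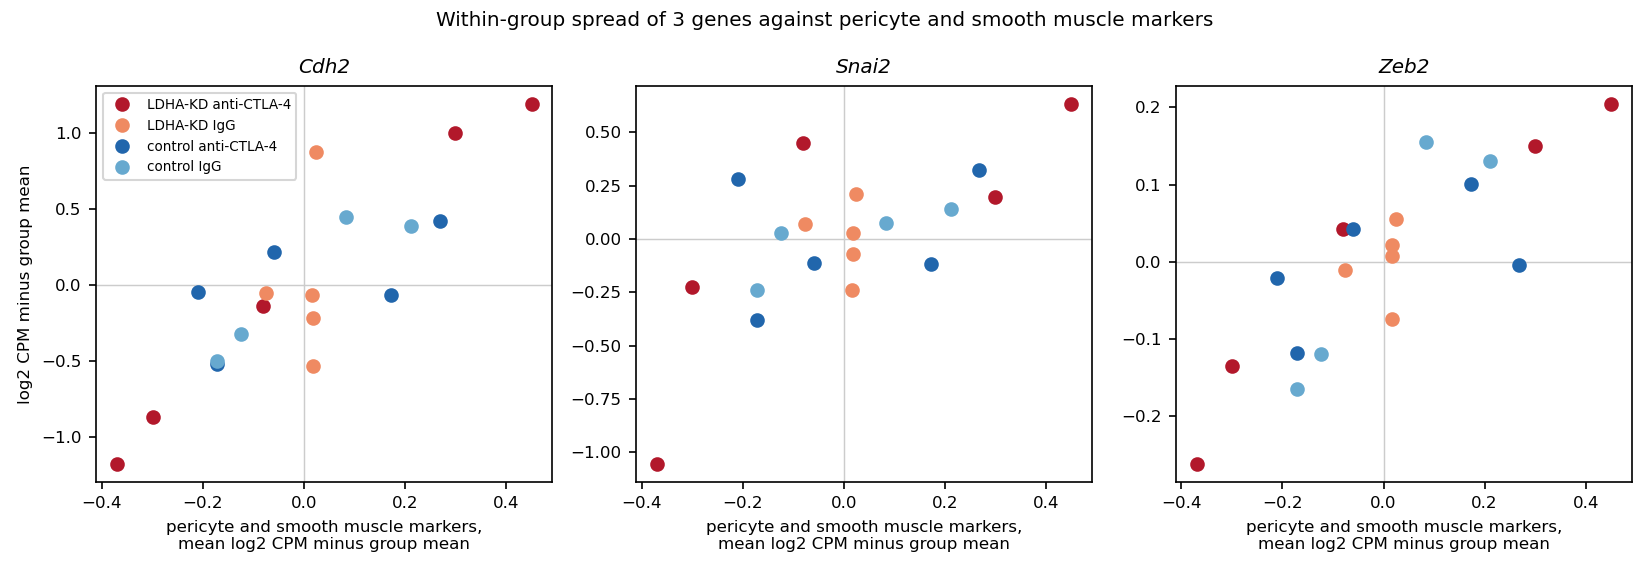
Log2 CPM of Cdh2, Snai2 and Zeb2 (vertical axes) against the mean log2 CPM of pericyte and smooth-muscle markers (horizontal axis), each minus its group mean, with 1 point per tumour. LDHA-KD anti-CTLA-4 tumours span the widest range on the horizontal axis, and replicate 1 at the lower left and replicate 3 at the upper right are the 2 tumours farthest out.

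Over the 19 tumours, with group means subtracted, the genes most like each member were named from the correlation of log2 CPM, as a description with no test. Prrx1 was the gene most like Snai2 (r = 0.87), followed by Kif26b (0.86) and Phyhd1 (0.85). For Zeb2 these were Arhgap31 (r = 0.95), H6pd (0.95) and Nid1 (0.94), for Cdh2 Rnf150, Nsg1 and Rab11fip1 (0.93 each), and for Zeb1 Nsd1 (0.91), Zfp382 (0.91) and BC005561 (0.91). Grhl2 was most like Fzd6 (r = 0.93), a Frizzled receptor, and then Kcnk1 (0.91) and Rab31 (0.89). Cdh1 had Secisbp2l (0.88), Swap70 (0.87) and Slc39a1 (0.87), Vim had Rpn2 (0.95), Asb8 (0.94) and Ccdc109b (0.93), and Snai1 had Ptms (0.96), Snx8 (0.95) and Spns1 (0.94). Twist1 was most like Kdelr1 (r = 0.89), Pnrc1 (0.88) and Fam3c (0.86). The likeness was least for Esrp1, with Arhgef3 (0.74), Usp11 (0.73) and Shpk (0.73). No member appeared among the 3 genes most like another member. Cdh2 and Esrp1 could not have appeared, since candidates needed a mean log2 CPM of at least 1 and theirs were 0.273 and 0.737.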

How the data were processed

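RNA of 19 implanted tumours was poly(A)-selected and sequenced with a stranded kit, per the labels' protocols. The authors deposited raw counts per gene, without normalization. HTSeq 0.5.3, Picard 1.124 and mm10 are named in the submitters' processing notes, and the aligner, strand setting and annotation release are not given in the sources used here. The 5 summary lines stayed out of totals and tests. Of all records, 8.42% to 13.8% fell in no gene, 10.2% to 14.1% did not align uniquely and 1.56% to 1.92% were ambiguous. Within groups no library was a copy of another (lowest chi-square per gene 5.40).

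The tests used edgeR 4.0.16 under R 4.3.3 (filterByExpr, TMM factors, 1 coefficient per group, quasi-likelihood test, Benjamini-Hochberg over all genes, threshold 0.05), which was checked on simulated data. CPM uses TMM-scaled totals, and log2 CPM a prior count of 2. Positions and exon lengths come from GENCODE M21 on GRCm38 (46488 of 46983 identifiers matched). Permutations of relations, 100000 in number, stayed within groups. Alternatives used limma 3.58.1, DESeq2 1.42.0, other scalings and filters, a replicate block and leaving out each library. The members and lists were chosen with earlier results of these data known. From each list up to 3 called genes with the smallest p and a mean log2 CPM of at least 1 are named, with the paralogs of members; for each member the 3 most correlated genes, predicted-gene names left out. A gene that this rule also names is not reported here.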

Additional observations from a re-analysis of the deposited data

Results flagged for a closer look

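In 2 of 40 groups of values, 1 tumour stood far from the rest of its group, where chance flags about 1 in 20. Cdh2 was at 1.31 CPM in LDHA-KD IgG replicate 3, against 0.667 CPM in the next highest tumour of that group. Without that tumour Cdh2 was called lower in LDHA-KD than in control tumours under IgG, as given above. Zeb1 was at 21.7 CPM in LDHA-KD IgG replicate 4, against 20.7 CPM in the next highest, in a group whose other values lay between 20.5 and 20.7 CPM.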

How the results depend on the processing

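Of the calls between the lines, Twist1, Grhl2 and Zeb2 in both comparisons and Snai2 under IgG were made under every alternative and without each library in turn. Snai1 under IgG was lost with library totals (-0.33), limma voom (-0.38), no filter on low counts (-0.40) and the replicate block (-0.36), and ranged from -0.51 to -0.26 when 1 library was left out. Cdh2 under IgG was gained with the compared groups only (-0.96, adjusted p = 0.0334). The number of the 10 genes called under IgG was 5, and 4 to 6 under the alternatives, and under anti-CTLA-4 it was 4, and 3 without the 4 libraries apart on the second component, a choice made after seeing the data. That choice also took all genes called under anti-CTLA-4 to 4308, against 6711. None of the 10 genes was called for treatment or interaction under any alternative. Library totals moved the share of higher among all calls to 65.2%, against 50.5%, under anti-CTLA-4 and to 60.5%, against 48.9%, under IgG, and the median of all genes to 0.10 and 0.07.

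Signs differed from those reported in 52 of 1340 alternative values of the 10 genes. All 52 belong to 13 uncalled differences of at most 0.10 in size, and none was called when its sign differed. Leaving out 1 library gave, for anti-CTLA-4 against IgG, -0.090 to 0.069 for Cdh1, -0.062 to 0.25 for Cdh2, -0.038 to 0.21 for Snai1, -0.11 to 0.063 for Snai2 and -0.039 to 0.072 for Zeb2 in control tumours, and -0.056 to 0.044 for Zeb1 in LDHA-KD tumours. For LDHA-KD against control under anti-CTLA-4 it gave -0.063 to 0.00072 for Cdh1, -0.31 to 0.27 for Cdh2, -0.11 to 0.19 for Esrp1 and -0.055 to 0.12 for Vim, under IgG -0.016 to 0.088 for Zeb1, and for the interaction -0.10 to 0.063 for Twist1 and 0.041 to 0.16 for Zeb2. Without the 4 libraries the treatment difference in control tumours was 0.068 for Cdh1 and -0.13 for Cdh2, the line difference under anti-CTLA-4 was -0.73 for Cdh2 and -0.0089 for Vim, and the interaction was -0.0090 for Twist1 and -0.0082 for Zeb2. With voom, Cdh1 was 0.0043 for treatment in control tumours and Cdh2 was -0.25 between the lines under anti-CTLA-4. Library totals gave 0.066 for Cdh1 between the lines under anti-CTLA-4 and -0.011 for Zeb2 for treatment in control tumours, and no filter gave 0.00025 for Zeb1 for treatment in LDHA-KD tumours. The causes were not tested.

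Replicate numbers are shared between groups, but the labels do not say that a number marks a litter, day or batch. Over 27 pairs of same-numbered tumours the correlation of their deviations ran from -0.21 to 0.39 (median 0.12), with 15 over 0.1. Differently numbered tumours were not correlated for reference, so these values cannot decide whether the numbers mark pairs. The main fit used no pairs because the labels name none. With the replicate block, 4 of the 10 genes and 5941 of all genes were called under IgG, and 4 and 7144 under anti-CTLA-4. Without it these counts were 5 and 5752 under IgG, and 4 and 6711 under anti-CTLA-4. The block gave 0.0057 for Cdh1 for treatment in control tumours, -0.10 for Cdh2 between the lines under anti-CTLA-4 and -0.032 for Twist1 in the interaction. Depth limits Cdh2 and Esrp1 most, at 17 to 119 and 26 to 115 counts per tumour.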

Other observations

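Several regulators of the programme with low levels had larger line differences than the 10 genes, and they are named here after their values were seen. Cdh15, the cadherin of muscle precursors, averaged 0.491 ± 0.117 CPM in LDHA-KD and 2.45 ± 0.404 CPM in control tumours given anti-CTLA-4, and 0.312 ± 0.106 CPM in LDHA-KD and 3.77 ± 0.693 CPM in control tumours given IgG. Its log2 fold changes were -2.31 (SE 0.209) and -3.58 (SE 0.229) under the same treatments. Of the 4 skeletal muscle markers, 1 was lower under each treatment, where 19.8% and 17.5% of all genes were called lower. The median log2 fold change of these markers was -0.115 under anti-CTLA-4 and 0.348 under IgG. Their part in the Cdh15 values was not tested. Foxq1, a forkhead factor, had -2.21 (SE 0.512) under anti-CTLA-4 and -2.13 (SE 0.488) under IgG, and Klf8, a zinc-finger factor, -1.43 (SE 0.167) and -1.56 (SE 0.175). Ovol1 and Ovol2, epithelial zinc-finger factors that restrain EMT, were lower too, with log2 fold changes of -1.49 (SE 0.253) and -1.35 (SE 0.268) for Ovol1 and of -0.80 (SE 0.243) and -1.31 (SE 0.264) for Ovol2, in the same order. Within the tight-junction claudins of the carcinoma list the directions split. Cldn4 averaged 28.3 ± 6.61 CPM in LDHA-KD and 217 ± 46.4 CPM in control tumours given anti-CTLA-4, whereas Cldn7 averaged 23.6 ± 1.10 CPM in LDHA-KD and 8.44 ± 0.987 CPM in control tumours.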
